A study of Mus musculus with 16 samples.

Results

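The comparison described here is that of adiponectin-deficient with wildtype mouse lung after ozone. It rests on 8 of the 16 arrays of the study, chosen by their labels: 4 adiponectin-deficient and 4 wildtype mice that breathed 0.3 ppm ozone for 72 h. The other 8 arrays, 4 of each genotype, came from mice kept in room air for the same time and served to estimate the spread and to ask whether a genotype difference was also present without ozone. Each group held 2 males (M1 and M2) and 2 females (F1 and F2), all listed under the C57BL/6 background strain, with a mean age of 14 weeks for all mice. Each array read total RNA of the left lung of a mouse killed at the end of the exposure. How the deficient line was made, which part of the adiponectin gene it lacks and whether the 2 genotypes were littermates are points on which the sources used here say nothing. For wildtype ozone F1 the title, source and exposure labels say ozone but the description says room air. It was kept with the ozone arrays.

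Adiponectin is a hormone that fat cells release into the blood. It acts through the receptors AdipoR1 and AdipoR2 and binds T-cadherin on endothelium, and it is known for damping inflammation and improving the response to insulin. Ozone is an oxidant gas that injures the epithelium of airways and alveoli, after which the lung recruits leukocytes, makes acute phase proteins and replaces lost cells by division. The question was how the lung's transcripts after ozone depend on the hormone.

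The deposited values are intensities of probe sets, given below as log2 values, so that a difference of 1 is a doubling. A difference is deficient minus wildtype, ± its standard error from a limma model of all 16 arrays with sex as a term, with n = 4 per group. Calls were made at p under 0.05 after Benjamini-Hochberg adjustment over 12393 genes. Median log2 intensity differed by at most 0.0701 between the ozone arrays. The lung labels were borne out by their markers. Sftpc, surfactant protein C of alveolar type 2 cells, lay between 14.54 and 14.62 on the ozone arrays, and Scgb1a1, the secretory protein of club cells, between 14.57 and 14.72. Among the air arrays, the summed intensity of 17 fat cell genes was 40884 on wildtype air F1 and 41688 on the array labelled deficient air F2 against 14291 to 19486 on the others. That of 16 skeletal muscle genes was 44620 on deficient air M2 against 2248 to 4150. On the ozone arrays these sums lay between 15521 and 21698 for fat and between 2392 and 3215 for muscle. Some values without these 3 air arrays are given below, and others that changed are not.

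Few genes were called between the genotypes after ozone. Only Clec16a and Saa3 passed the threshold, 0.0161% of the genes tested, both higher in the deficient mice, and 11 more had an adjusted p between 0.05 and 0.1. At an unadjusted p under 0.05 there were 1392 genes (11.2%), 641 higher (5.17%) and 751 lower (6.06%) in the deficient mice. The 4 deficient arrays lay wholly above the 4 wildtype arrays for 268 genes (2.16%) and wholly below them for 412 (3.32%). For 99.35% of the genes the difference was under 0.5 in size, with a median standard error of 0.08236. Aligning the arrays again by quantiles gave 5 calls, 3 of them higher, and a common median gave 3, of which 2 were higher. Without the 3 air arrays that carried markers of fat or muscle 9 genes were called, and 10 with each array weighted by its quality. Leaving out 1 array gave 1 call without wildtype air M1 or F2 or wildtype ozone M1, F1 or F2. It gave 7 without deficient ozone F1, 5 without deficient air M2 and 4 without wildtype air F1 or the array labelled deficient air F2. Clec16a was among the calls each time.

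Adipoq itself, the gene of adiponectin, was read as a check of the labels, although whether its probe set reads the part that was deleted is not given. It read 7.70, 7.77, 7.96 and 8.76 on wildtype ozone M1, M2, F1 and F2 and 6.36, 6.14, 6.33 and 6.07 on the deficient arrays in the same order. All 4 deficient arrays were below all 4 wildtype arrays, by -1.82 ± 0.576 (two-sided exact permutation p = 0.0286, which is the lowest possible for 4 arrays against 4). It was not called by limma over all arrays (adjusted p = 0.28), where the spread included wildtype air F1 at 11.52 and the array labelled deficient air F2 at 8.82, both of which carried the fat cell markers. In air the groups overlapped, as that second array read above wildtype air M1 at 7.19 and M2 at 8.05 and above every wildtype ozone array. Taken alone, that value went against the array's label, but it was below the 11.52 of wildtype air F1, which had a similar fat cell sum. Clec16a, described below, read 8.10 on the array labelled deficient air F2. It read 7.43 to 7.57 on the wildtype air arrays and 8.13 to 8.22 on the other deficient air arrays. Adipoq passed with the ozone arrays alone (limma adjusted p = 0.0195) and without the 3 air arrays (0.0232), and its adjusted p ran from 0.0195 to 1 across settings. Of the 17 fat cell genes, Adipoq included, 1 was above 0 and the median was -0.16. It was -0.09 without wildtype ozone M1 and -0.08 without deficient ozone F1. Adipoq was the 1 member lower at an unadjusted p under 0.05, where 6.06% of all genes were lower. That count was 5 without the 3 air arrays, 3 without wildtype air F1 and 2 without the array labelled deficient air F2 or deficient ozone M1. The list's summed intensity ran from 17665 to 21698 on the wildtype ozone arrays and from 15521 to 19408 on the deficient ones.

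**Figure D1:**
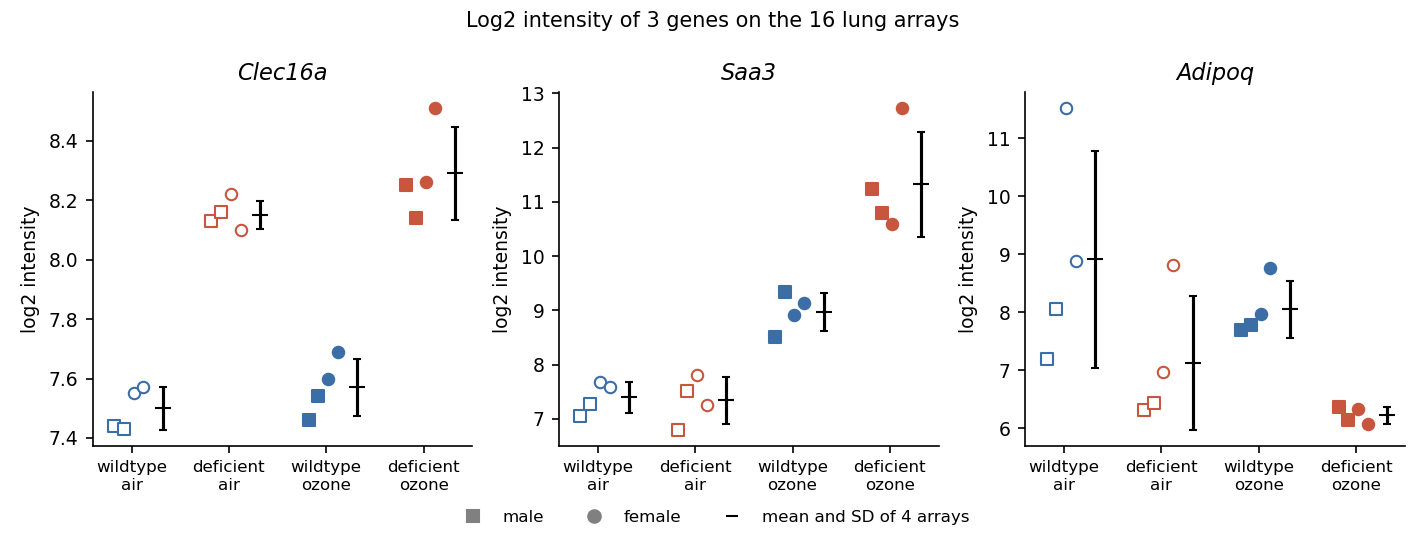
Log2 intensity of Clec16a, Saa3 and Adipoq on each of the 16 arrays, by genotype and exposure, with squares for males, circles for females, open symbols for air, filled symbols for ozone and the mean ± SD of 4 arrays in black. Clec16a was higher in deficient mice in both exposures, Saa3 separated the genotypes after ozone but not in air, and Adipoq separated the genotypes after ozone but overlapped in air.

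Of the molecules that bind adiponectin, Cdh13, the gene of T-cadherin, read 8.07, 7.86, 7.71 and 7.62 on the wildtype ozone arrays M1, M2, F1 and F2. On the deficient ones it read 7.05, 7.50, 7.46 and 7.05. The groups did not overlap and the difference was -0.55 ± 0.121, which did not pass (limma adjusted p = 0.143). The mean of the gene's probe sets gave a difference of -0.27. The difference in air was -0.26 ± 0.121 and did not pass either. The receptor gene Adipor1 had a difference of -0.09 and Adipor2 one of 0.11, neither called.

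Saa3 encodes serum amyloid A3, an acute phase protein that epithelium and macrophages make under inflammatory cytokines such as IL-1 and IL-6. Its promoter is shown because Saa3 had the largest difference among the called genes. C/EBP factors are known activators of serum amyloid genes. The sequence runs from 250 bases before to 50 after the start used here, on the minus strand of chr7:46715627-46715926 (GRCm38.p6, RefSeq). That start lies inside the gene's listed span, chr7:46711998-46719615, and not at the span's upper end. Capitals mark the single match to the C/EBP letters TTGCNNAA, sought on both strands. The match starts 99 bases before the start used, and 10.8% of all 32851 promoter windows hold one. No match to the STAT letters TTCNNNGAA, held by 8.298% of windows, lies in this window.

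Saa3 promoter: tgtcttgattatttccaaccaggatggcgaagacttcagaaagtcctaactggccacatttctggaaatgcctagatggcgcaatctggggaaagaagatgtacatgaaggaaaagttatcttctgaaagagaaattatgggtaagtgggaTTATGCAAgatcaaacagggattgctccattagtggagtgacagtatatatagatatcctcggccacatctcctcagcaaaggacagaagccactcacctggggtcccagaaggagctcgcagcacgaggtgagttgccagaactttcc

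Saa3 read 8.50, 9.33, 8.91 and 9.13 on wildtype ozone M1, M2, F1 and F2. It read 11.23, 10.79, 10.59 and 12.73 on the deficient arrays. Every deficient array lay above every wildtype array, deficient F2 highest of all. Saa3 rose in the deficient mice by 2.37 ± 0.338, a 5.16-fold difference (limma adjusted p = 0.027). In air the difference was -0.06 ± 0.338. The test of that contrast itself, genotype by ozone, gave 2.43 ± 0.477 for Saa3, which had the smallest p of all genes there but did not pass over all genes (limma adjusted p = 0.673). The ozone difference was 2.09 ± 0.521 in males and 2.64 ± 0.521 in females. The call was held under 19 of 31 settings, with an adjusted p between 0.00202 and 0.269. It was lost without wildtype air M1 (0.0561), wildtype air F2 (0.0643), wildtype ozone M1 (0.0623), wildtype ozone F1 (0.114), wildtype ozone F2 (0.096) and deficient ozone M1 (0.0805). It was also lost with the ozone arrays alone (0.182), in males alone (0.215), in females alone (0.269), with 8 groups (0.101), with an intensity trend and robust prior (0.0653) and when tested against a fold of 1.2 (0.0551).

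Of 27 acute phase genes measured, Saa3 was the 1 called. The median difference was 0.10 against -0.008 over all genes, but 0.03 without wildtype ozone M1, 0.16 without wildtype ozone M2, 0.15 with dim genes left out and 0.05 in females. At an unadjusted p under 0.05, Saa3, Fgg, Cp, Cfb and Saa1 were higher and Apcs lower, where 5.17% of all genes were higher and 6.06% lower. The 5 higher were 2 without deficient ozone M1, and Apcs was no longer counted without M1 or M2 of either genotype. These encode a fibrinogen chain, the copper carrier ceruloplasmin, complement factor B, another serum amyloid A and serum amyloid P. Lcn2, which withholds iron from bacteria, differed by 0.18 ± 0.22. Leaving out 1 array gave 0.07 without deficient ozone F2, 0.08 and 0.11 without wildtype ozone M1 and F2, 0.34 without wildtype ozone M2 and 0.37 without deficient ozone F1, and array weights gave 0.09. Lcn2 read 11.84, 12.56, 12.02 and 11.83 on the wildtype ozone arrays and 12.44, 12.39, 11.65 and 12.47 on the deficient ones, so that the groups overlapped widely.

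Cytokines upstream of that response were followed as fixed genes. Il6 read 4.71, 4.53, 5.04 and 4.88 on the wildtype ozone arrays and 5.07, 4.96, 4.94 and 6.21 on the deficient arrays. Its difference was 0.50 ± 0.19 (limma adjusted p = 0.347). Leaving out deficient ozone F2 gave 0.22, and that was the array that also had the highest Saa3. Il1b overlapped between the groups, from 7.14 to 9.16 in wildtype and from 7.73 to 8.96 in deficient mice, with a difference of 0.33 ± 0.385 that was 0.77 without wildtype ozone M2 and 0.02 without deficient ozone F2. It was 0.11 and 0.10 without wildtype ozone M1 and F2 and 0.53 without deficient ozone M2, -0.28 in males and 0.94 in females. Il17a, a cytokine that recruits neutrophils, lay between 5.87 and 6.08 in wildtype and between 5.78 and 5.89 in deficient mice, a difference of -0.12 ± 0.0559 (limma adjusted p = 0.459). In air Il17a read much the same, 5.86 to 5.93 in wildtype and 5.72 to 5.91 in deficient mice. Whether its probe set stood above background is unknown. Timp1, an inhibitor of matrix metalloproteinases, read 10.12, 10.64, 10.73 and 10.55 in wildtype and 10.70, 11.42, 10.91 and 11.37 in deficient mice. Its difference of 0.59 ± 0.158 did not pass (adjusted p = 0.241), and in air it was -0.20 ± 0.158.

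Among 19 CXC chemokine and receptor genes none was called, 4 were higher (5.17% over all genes) and 0 lower at an unadjusted p under 0.05, and the median was 0.13, with 0.03 in males and 0.27 in females. The count of 4 was 7 without deficient ozone M2 and 3 without wildtype ozone F1. Cxcl13, which draws B cells to lymphoid tissue, lay between 7.01 and 7.33 on the wildtype ozone arrays and between 7.86 and 8.32 on the deficient ones, without overlap. Its difference was 0.90 ± 0.317 (limma adjusted p = 0.324) against 0.34 ± 0.317 in air. A dimmer Cxcl13 probe set differed by 2.74 ± 0.633, so that their mean gave 1.82. Cxcl1, a neutrophil attractant, read 5.27, 5.16, 5.91 and 5.26 in wildtype and 5.85, 5.69, 5.71 and 6.69 in deficient mice, a difference of 0.58 ± 0.194 (adjusted p = 0.288) that was 0.35 without deficient ozone F2. Cxcl5, of like function, differed by 0.44 ± 0.215, by 0.06 in males and 0.82 in females, and by 0.11 without that array, which read 6.05 against 4.49 to 4.84 on the other 3 deficient arrays. The monocyte attractant Ccl2 differed by 0.20 ± 0.104, or 0.12 without that array, 0.31 without deficient ozone M1 and 0.13 in males. Nqo1, an antioxidant quinone reductase, lay between 7.01 and 7.20 in wildtype and between 6.77 and 7.11 in deficient mice, a difference of -0.20 ± 0.0861 (adjusted p = 0.388) against 0.19 ± 0.0861 in air. The remaining 11 fixed genes had differences between -0.09 for Adipor1 and 0.18 for Socs3, an inhibitor of cytokine signalling, none with an adjusted p below 0.691.

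Neutrophil transcripts depended on 1 array. S100a8 and S100a9 form calprotectin, an abundant protein of neutrophils. S100a8 read 9.60, 13.68, 9.44 and 9.53 on wildtype ozone M1, M2, F1 and F2 and 10.83, 10.82, 10.48 and 11.60 on the deficient arrays. S100a9 read 9.21, 14.31, 9.12 and 9.16 in wildtype and 10.68, 10.75, 10.22 and 11.14 in deficient mice. Wildtype ozone M2 was above all deficient arrays and the other 3 wildtype arrays below all of them. The S100a8 difference was 0.37 ± 0.724 and that of S100a9 0.25 ± 0.843. Over 15 neutrophil genes the summed intensity ranged from 17165 to 66783 in wildtype and from 18297 to 24116 in deficient mice. The median difference was -0.29, 0.19 without wildtype ozone M2 and -0.64 without wildtype ozone M1. No neutrophil gene had an unadjusted p under 0.05 over all arrays, and 3 were higher without that array, while 1 was lower without wildtype ozone M1. The same array stood apart on the first principal component of the ozone arrays, which took 34.4% of their variance. The second, at 19.5%, placed the wildtype arrays between 5.20 and 7.70 and 3 deficient arrays between -16.16 and -6.05, with deficient ozone F2 among the wildtype at 5.68. In whole lung RNA, a change in the number of cells of a type and a change in RNA per cell cannot be told apart.

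**Figure D2:**
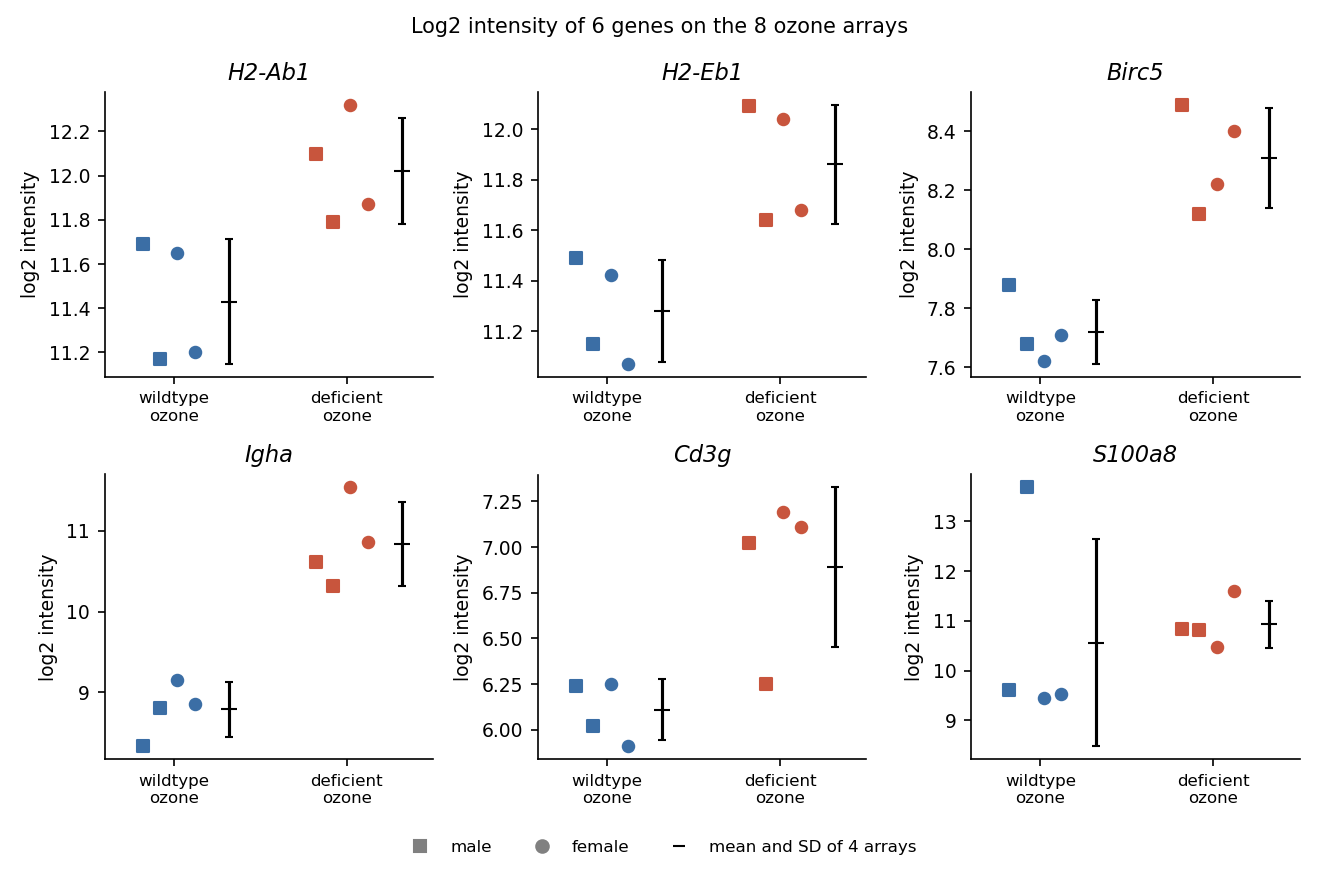
Log2 intensity of 6 genes on the 8 ozone arrays, with squares for males, circles for females and the mean ± SD of 4 arrays in black. H2-Ab1, H2-Eb1, Birc5 and Igha did not overlap between genotypes, Cd3g overlapped on deficient ozone M2, and S100a8 was highest on wildtype ozone M2.

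Genes that present antigen on MHC class II were higher in deficient mice by their values, though none was called. These molecules carry peptides to helper T cells, on dendritic cells, B cells and macrophages. Their promoters share the Y box, and those of H2-Aa, an alpha chain, and H2-Eb1, a beta chain, are shown because these are the 2 members that both hold it and did not overlap between genotypes. Both run from 250 bases before to 50 after the gene's start (GRCm38.p6, RefSeq), H2-Aa on the minus strand of chr17:34287774-34288073 and H2-Eb1 on the plus strand of chr17:34305617-34305916. Capitals mark the Y box letters CTGATTGG, sought on both strands. A match is held by 3 of the 7 members with a window, H2-Aa, H2-Eb1 and H2-Oa, and by 4.097% of all windows.

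H2-Aa promoter: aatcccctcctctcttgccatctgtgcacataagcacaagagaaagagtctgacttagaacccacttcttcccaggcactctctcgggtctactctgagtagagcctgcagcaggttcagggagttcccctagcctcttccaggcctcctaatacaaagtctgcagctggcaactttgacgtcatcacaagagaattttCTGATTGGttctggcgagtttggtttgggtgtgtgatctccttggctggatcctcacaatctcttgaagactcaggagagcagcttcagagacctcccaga
H2-Eb1 promoter: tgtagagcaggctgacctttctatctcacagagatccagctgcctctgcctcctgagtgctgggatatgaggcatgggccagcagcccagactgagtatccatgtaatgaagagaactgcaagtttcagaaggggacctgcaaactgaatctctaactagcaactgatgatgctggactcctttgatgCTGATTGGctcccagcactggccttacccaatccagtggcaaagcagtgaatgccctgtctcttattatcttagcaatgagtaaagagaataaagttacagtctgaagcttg

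H2-Eb1 read 11.49, 11.15, 11.42 and 11.07 on the wildtype ozone arrays M1, M2, F1 and F2 and 12.09, 11.64, 12.04 and 11.68 on the deficient ones. The difference was 0.58 ± 0.11 (limma adjusted p = 0.0943). H2-Ab1, the beta chain that pairs with H2-Aa, read 11.69, 11.17, 11.65 and 11.20 in wildtype and 12.10, 11.79, 12.32 and 11.87 in deficient mice. Its difference was 0.60 ± 0.132 (adjusted p = 0.148), and that of H2-Aa 0.42 ± 0.0912 (0.141). H2-DMa, which helps load the peptide, differed by 0.50 ± 0.126, and Ciita, the coactivator that switches the class II genes on, by 0.35 ± 0.0957. For these 5 genes the groups did not overlap, where 2.16% of all genes lay wholly above. Ciita lies on chromosome 16, 12.6 Mb from Adipoq, and its second probe set differed by 0.17 ± 0.108. The part of that position in the Ciita value was not tested. H2-Aa, H2-Ab1, H2-Eb1 and H2-DMa stood higher on M1 and F1 than on M2 and F2 within both genotypes. Of the 11 genes measured, 7 were higher and 0 lower at an unadjusted p under 0.05, where 5.17% of all genes were higher, and the median was 0.35. The count of 7 was 5 without wildtype ozone F2, deficient ozone M1 or deficient ozone F1, and 9 without wildtype ozone F1. In air the median was 0.10. H2-Ea, another alpha chain, was the 1 below 0, at -0.13 ± 0.133. The summed intensity lay between 19943 and 27145 on the wildtype ozone arrays and between 27797 and 34597 on the deficient ones.

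Markers of the cells that carry class II molecules were set beside these values. Of 14 dendritic cell genes 3 were higher at an unadjusted p under 0.05 (5.17% over all genes), Fscn1, Itgax and Ccl22. The median was 0.19, or 0.10 without wildtype ozone F2 and 0.11 with the mean of all probe sets. The count was 0 without wildtype ozone M2, 1 without wildtype ozone M1 or F2 and 6 without wildtype ozone F1. Their summed intensity, 2734 to 4126 in wildtype and 3399 to 3956 in deficient mice, overlapped. The B cell surface genes Cd79a, Cd79b and Ms4a1 differed by 0.25 ± 0.313, 0.20 ± 0.307 and 0.19 ± 0.437. They were high on deficient ozone M1 and F1 and low on M2 and F2. The part of these cells in the class II values was not tested.

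The antibody genes were the members of the B lineage with the widest differences, and also with wide errors. Igha, the heavy chain of IgA, which plasma cells of mucosa secrete, read 8.33, 8.81, 9.15 and 8.85 on the wildtype ozone arrays. It read 10.62, 10.32, 11.54 and 10.86 on the deficient ones, all above the wildtype, a difference of 2.05 ± 0.354 or 4.15-fold that just missed the threshold (limma adjusted p = 0.0674). It passed with the ozone arrays alone (0.00783), with array weights (0.0203), after dropping deficient air M2 (0.0239) and after dropping all 3 air arrays with other markers (0.0133), and its adjusted p was between 0.00783 and 0.318 across settings. In air the difference was 1.63 ± 0.354 with overlapping groups, 8.39 to 10.63 in wildtype and 10.21 to 11.99 in deficient mice. The summed B and plasma cell intensity was 24487 on wildtype air F1, 21924 on deficient air M2 and 21943 on the array labelled deficient air F2. On the other air arrays it lay between 8708 and 12499. Igha read 10.63, 11.60 and 11.99 on the 3 in that order, against 8.39 to 10.91 on the other air arrays. Jchain, which joins IgA units, differed by 2.33 ± 0.866 (adjusted p = 0.338), and Ighm, the IgM heavy chain, by 1.38 ± 1.03. The Ighm value was 0.38 without deficient ozone M1, 2.11 without deficient ozone F2, 0.76 in females and 0.26 over the mean of its 11 probe sets. Ighm read 13.41 and 12.07 on deficient ozone M1 and F1 and 8.99 and 9.13 on M2 and F2. The summed intensity of 16 B and plasma cell genes ran from 8990 to 9976 in wildtype and from 9578 to 22241 in deficient mice. The median of the list, 0.19, was -0.08 in males, 0.41 in females and -0.00 without wildtype ozone F2. It was 0.01 and 0.03 without deficient ozone M1 and F1, 0.33 without deficient ozone M2 or F2 and 0.29 without wildtype ozone M1, so its direction depended on the mice included. Jchain and Ighm were named after their values were seen.

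Of 23 T and NK cell genes none was called, 7 were higher (5.17% over all genes) and 0 lower at an unadjusted p under 0.05, and the median was 0.13 in ozone and -0.11 in air. Cd3g, a chain of the T cell receptor complex, read 6.24, 6.02, 6.25 and 5.91 in wildtype and 7.02, 6.25, 7.19 and 7.11 in deficient mice. Only deficient ozone M2 reached the wildtype range. The difference was 0.78 ± 0.157 (limma adjusted p = 0.127), and it passed without that array (0.96, adjusted p = 0.017). Il7r, the receptor for the survival cytokine IL-7, differed by 0.49 ± 0.152, and Klrd1, an NK cell receptor, by 0.51 ± 0.176, both without overlap. Cd4 and Cd8a, the coreceptors that mark the main T cell classes, differed by 0.02 ± 0.0874 and -0.02 ± 0.0672. The list's median was -0.01 in males and 0.33 in females, and it was 0.06 without deficient ozone F1, 0.08 without wildtype ozone F2, 0.20 without wildtype ozone M1 or deficient ozone F2 and 0.22 without deficient ozone M2. The count of 7 was 11 without deficient ozone F2 and 5 without deficient ozone M1. Without wildtype ozone F2 it was 5, with 1 gene lower.

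Genes of cell division were higher in deficient mice by small amounts, with none called. Of 31 mitotic genes measured, 30 had a difference above 0, 15 were higher and 0 lower at an unadjusted p under 0.05, and the groups did not overlap for 9, where 5.17% of all genes were higher and 2.16% lay wholly above. The median was 0.25, against 0.05 in air. The count of 15 was 11 without deficient ozone M1, 12 without wildtype ozone M2 and 22 without deficient ozone F1. By array, the list's median over the wildtype mean was 0.10 on wildtype M1 and 0.08 on deficient F1, so the ranges overlapped. Birc5, or survivin, which guides chromosome segregation, read 7.88, 7.68, 7.62 and 7.71 on the wildtype ozone arrays and 8.49, 8.12, 8.22 and 8.40 on the deficient arrays. That is a difference of 0.59 ± 0.101 (limma adjusted p = 0.0674), against 0.13 ± 0.101 in air, where both groups were between 4.96 and 5.43. Trip13, a checkpoint ATPase, differed by 0.59 ± 0.105 (adjusted p = 0.0674, and by 0.28 over the mean of its probe sets), Kif22, a chromosome motor, by 0.60 ± 0.147, and Cep55, of the final cut between daughter cells, by 0.51 ± 0.11. Over the mean of their probe sets Kif22 differed by 0.34 and Cep55 by 0.25, and the second Cep55 probe set by -0.01. Birc5 passed with array weights (0.0377) and without wildtype air M2 (0.0426). Mki67, the marker of cycling cells, read 8.83, 8.55, 8.96 and 9.05 in wildtype and 9.20, 9.28, 9.18 and 9.91 in deficient mice, a difference of 0.54 ± 0.144 (adjusted p = 0.241).

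Replication genes were also higher by small amounts, with none called. Of 28 measured, 15 were higher and 0 lower at an unadjusted p under 0.05, the groups did not overlap for 5, and the median was 0.21 in ozone and 0.02 in air. The shares over all genes were again 5.17% and 2.16%. The count of 15 was 10 without wildtype ozone M2 or F1 and 19 without deficient ozone F1. Rpa2, a subunit of the protein that coats single-stranded DNA, lay between 6.88 and 7.12 in wildtype and between 7.30 and 7.40 in deficient mice, a difference of 0.40 ± 0.0878 (limma adjusted p = 0.143). Uhrf1, which keeps DNA methylation through replication, differed by 0.42 ± 0.119, or by 0.26 over the mean of its probe sets. Pcna, the sliding clamp, differed by 0.11 ± 0.0976 and Mcm2, of the helicase, by 0.16 ± 0.106. By array, the median of the replication list over the wildtype mean was highest in wildtype at 0.17 on M1 and lowest in deficient mice at 0.01 on F1, so the lists' ranges overlapped.

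**Figure D3:**
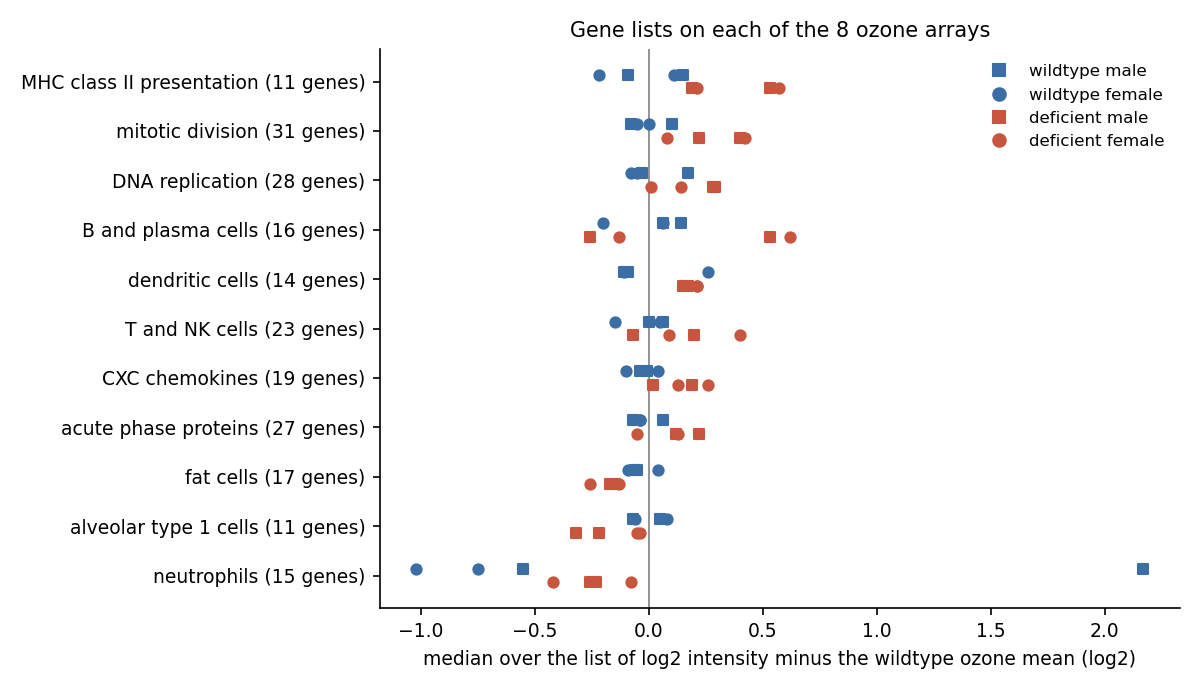
Median, over each fixed list, of log2 intensity minus the mean of the 4 wildtype ozone arrays, for each of the 8 ozone arrays, with squares for males and circles for females. The deficient arrays of MHC class II ran from 0.19 to 0.57 and the wildtype from -0.22 to 0.15, while neutrophil genes stood at 2.17 on wildtype ozone M2.

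Alveolar type 1 cells are the thin cells across which gas exchange takes place. Of 11 genes that mark them none was called, 0 were higher and 4 lower at an unadjusted p under 0.05, where 6.06% of all genes were lower, namely Igfbp2, Emp2, Ager and Hopx, and the median was -0.16. That median was -0.25 in males, -0.06 in females and -0.09 without deficient ozone M2, where the 4 lower genes were 2. In females alone the count was 0. Cav1 and Vegfa stood at 0.01, Cldn18 at -0.01 and Pdpn at -0.05. Of 17 alveolar type 2 cell genes, 1 was lower. Col4a3, on neither list and named after its value was seen, a collagen chain of the alveolar basement membrane, averaged 9.19 ± 0.0892 (SD, n = 4) in wildtype and 8.79 ± 0.146 (SD, n = 4) in deficient mice, without overlap, a difference of -0.40 ± 0.0747 (limma adjusted p = 0.0943, or 0.0377 with array weights). The other 44 lists had medians between -0.12, for heat shock and chaperone genes, and 0.15, for immediate early genes.

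Several genes just missed the threshold and were named after their values were seen. Pla2g1b, a secreted phospholipase A2, read 8.25, 8.36, 8.11 and 8.57 on the wildtype ozone arrays and 7.88, 7.49, 7.29 and 7.59 on the deficient ones. The difference was -0.76 ± 0.119 (limma adjusted p = 0.0531), it passed under 12 of 31 settings, and the mean of the gene's probe sets gave -0.35. Cyp7b1, which hydroxylates oxysterols, read 7.38, 7.45, 7.38 and 6.96 in wildtype and 8.28, 8.36, 7.76 and 8.55 in deficient mice, a difference of 0.94 ± 0.167 (adjusted p = 0.0674) against -0.04 ± 0.167 in air. Cyp7b1 passed without deficient ozone F1 (0.004) and with the mean of its probe sets (0.0487). Spink4, Sec14l4, Ttc28 and Capn6 had differences of -0.38 ± 0.0618, -0.44 ± 0.0763, -0.46 ± 0.0854 and -0.60 ± 0.113, each without overlap, and for Ttc28 the mean of its probe sets gave -0.18. Leaving out 1 array brought Spink4 past the threshold without deficient air M2 (0.0424), Sec14l4 without deficient ozone F1 (0.00557), Ttc28 without wildtype air F1 (0.0291) and Capn6 without the array labelled deficient air F2 (0.0259). Spink4 belongs to a family of secreted protease inhibitors and Capn6 to the calpains.

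Clec16a, which takes part in the turnover of mitochondria and endosomes, was the gene with the smallest p. It lies on chr16:10545309-10744878, 12.5 Mb from Adipoq at chr16:23146536-23157968 (GRCm38.p6). It read 7.46, 7.54, 7.60 and 7.69 on the wildtype ozone arrays and 8.25, 8.14, 8.26 and 8.51 on the deficient ones. In air it read 7.44, 7.43, 7.55 and 7.57 in wildtype and 8.13, 8.16, 8.22 and 8.10 in deficient mice. Every deficient array was above every wildtype array in either exposure. Clec16a rose by 0.72 ± 0.0627 in ozone (limma adjusted p = 0.000106) and by 0.65 ± 0.0627 in air (adjusted p = 0.000387), and the genotype by ozone term was 0.07 ± 0.0887 (adjusted p = 0.993). It was called under 29 of 31 settings and missed only in males alone and females alone, in a range up to 0.199. In air it was the 1 gene called (0.00807% of those tested, with 732 genes or 5.91% at an unadjusted p under 0.05), and it was the 1 gene called in both exposures.

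Genes near Adipoq were set beside the rest of its chromosome. Within 20 Mb of Adipoq, itself included, 27 of 241 genes (11.2%) had an unadjusted p under 0.05 in ozone, and 5 (2.075%) had one in both exposures in the same direction. On the rest of chromosome 16 these were 27 of 173 genes (15.61%) and 5 (2.89%). Those last 5, Slc35a5, Atg3, Ift57, Riox2 and Dscam, lay 22.0, 22.0, 26.6, 36.3 and 73.7 Mb from Adipoq. Over all genes the shares were 11.23% and 0.9522%. Timmdc1, a factor for assembling respiratory complex I, 15.4 Mb from Adipoq, read 6.55 to 7.29 in wildtype and 7.38 to 7.92 in deficient mice after ozone. Its difference was 0.68 ± 0.17 in ozone and 0.67 ± 0.17 in air, called in neither (limma adjusted p = 0.213 in ozone). Slc35a5, a nucleotide sugar transporter 22.0 Mb from Adipoq, differed by -0.65 ± 0.218 in ozone and -0.96 ± 0.218 in air. The ozone value was -0.39 without deficient ozone M2 and -0.36 over the mean of its probe sets. Timmdc1 and Slc35a5 were named after their values were seen, and the part of chromosomal position in these values was not tested.

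**Figure D4:**
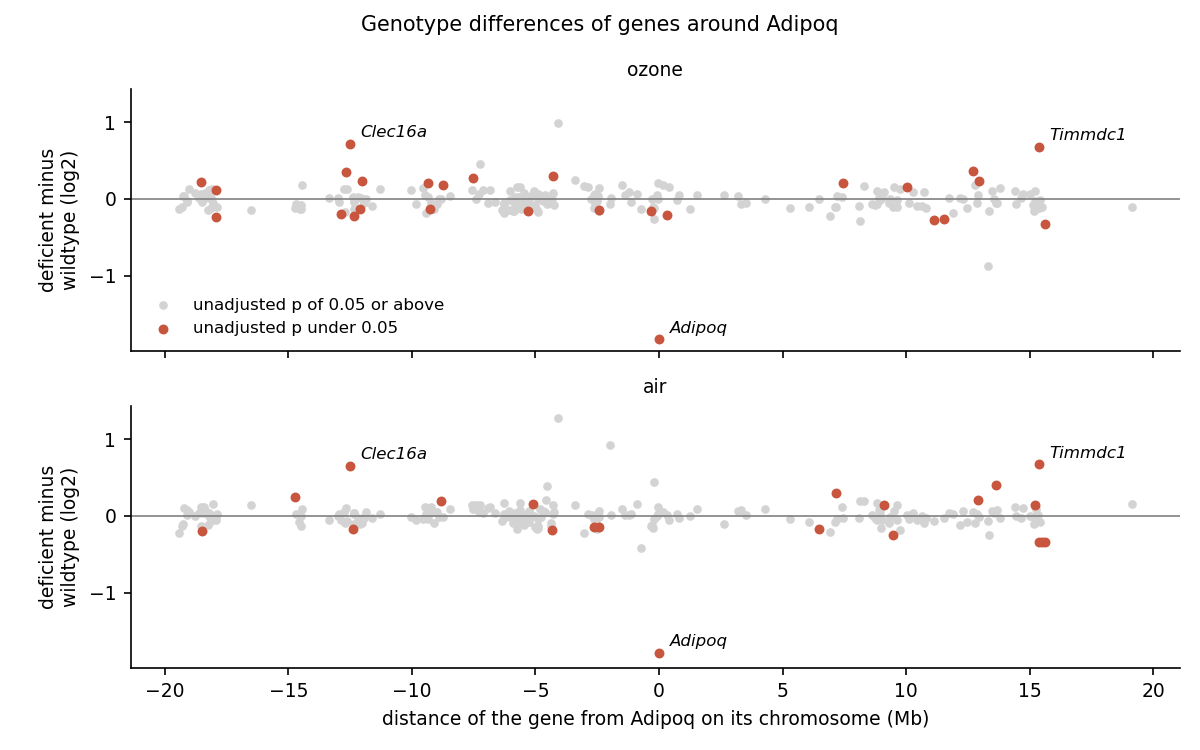
Deficient minus wildtype log2 difference in ozone (top) and in air (bottom) for the 241 genes within 20 Mb of Adipoq, against distance from Adipoq in Mb, with genes of unadjusted p under 0.05 in red. Clec16a, Timmdc1 and Adipoq kept their sign and about their size in both exposures.

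Whether ozone altered a genotype difference was tested directly. No gene passed (0%, 0 of 12393, with 605 at an unadjusted p under 0.05 by limma). Saa3, Mbd4 and Kank2 had the smallest p. Mbd4, a DNA repair glycosylase, had a genotype by ozone term of 0.52 ± 0.108 and Kank2, a regulator of the actin skeleton, one of 0.48 ± 0.102, each with an adjusted p of 0.673. Mbd4 read 6.19 to 6.39 in wildtype and 6.54 to 6.70 in deficient mice after ozone. Kank2 differed by 0.04 ± 0.0721 in ozone and by -0.44 ± 0.0721 in air.

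**Figure D5:**
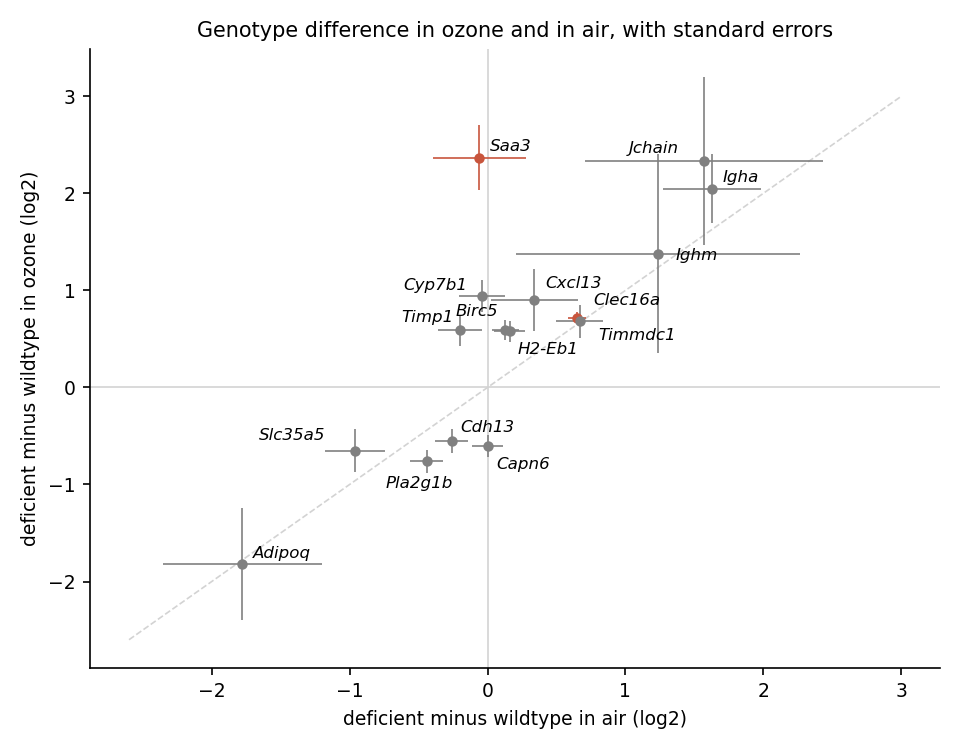
Deficient minus wildtype log2 difference in ozone (vertical axis) and in air (horizontal axis) for 16 genes of the text, with bars of 1 standard error, called genes in red and a dashed line where both are equal. Saa3 stood at 2.37 in ozone and -0.06 in air, while Clec16a, Timmdc1 and Adipoq lay near the line.

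The genotype difference after ozone was also compared between the sexes, with 2 mice per genotype and sex. Cth, which makes cysteine and hydrogen sulfide from cystathionine, was the 1 gene that passed (0.00807%, with 838 genes at an unadjusted p under 0.05). In males it read 6.79 and 6.70 in wildtype and 7.14 and 7.35 in deficient mice, and in females 7.11 and 7.01 against 6.52 and 6.34. The female minus male difference was -1.13 ± 0.142 (limma adjusted p = 0.0491). The call was kept with dim genes left out, with the mean of all probe sets and with array weights. It was lost after quantile normalization (0.0503), with a common median (0.0518) and with every probe set on its own (0.0758). The trend and robust prior (0.0513) and the ozone arrays alone (0.603) also lost it. Leaving out 1 array leaves 1 mouse in a group of genotype, exposure and sex, so counts are not given. The Cth difference then ran from -1.24 without deficient ozone M1 to -1.03 without deficient ozone M2. Without wildtype ozone M1 the 1 wildtype ozone male left is M2, the array high for S100a8 and S100a9. In the model of 8 groups, by genotype, exposure and sex, the genotype difference within females called 1 gene, Clec16a (limma adjusted p = 0.0365), and that within males 0, with 1794 genes at an unadjusted p under 0.05. Fitted to the female arrays alone, the 1 gene called was Cd177, a neutrophil surface protein named after its value was seen, and the male arrays alone gave 0, with 1732 at an unadjusted p under 0.05.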

How the data were processed

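The authors deposited linear intensities, 1 for every probe set on every array. Per the submitters' processing notes they came from RMA, a method that subtracts background, aligns the arrays and condenses the probes of a set. The software and its version are not stated. The deposited intensities of the ozone arrays ran from 11.2 to 26974.7, and no detection calls were used, so how far dim probe sets stood above background is unknown. Log2 was taken. Of 22690 probe sets, 64 controls, 691 with several gene symbols in the platform annotation and 1555 with none were left out. A gene measured by several probe sets, as 4956 of 12393 were, was represented by its brightest on average across the 16 arrays.

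Limma 3.58.1 in R 4.3.3 fitted the 4 groups and sex over the 16 arrays, so the air arrays share in the estimate of spread. A model of 8 groups gave the comparison of sexes. Mice were not said to be pooled, and each array was taken as 1 mouse. Adipoq was tested by exact permutation. The fit was tested on simulated data. The number of arrays limits the precision. Alternatives were quantile and median alignment, dim genes left out, all probe sets or their mean, a trend and robust prior, array weights, no sex term, the replicate block, ozone arrays alone, each sex alone, 8 groups, stricter thresholds, each array left out and 3 air arrays left out.

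Genes named were those called, up to 4 called members of each of 55 lists (1061 of 1204 entries measured), 26 fixed genes, those with the smallest p for interactions and called genes within 20 Mb of Adipoq. Others are said to be named after their values were seen, as were the 11 with an adjusted p from 0.05 to 0.1 and the uncalled members of lists. The comparison, its lists and its alternatives were chosen with earlier results of these data known. Positions and promoters came from RefSeq's tables for GRCm38.p6, where 12369 genes matched by symbol. Python 3.11.15 drew the figures.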

Additional observations from a re-analysis of the deposited data

Results flagged for a closer look

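Single arrays stood apart within their group of 4 for several genes, by a gap to the nearest array that was large against the group's range. Chance alone gives about 1 such gap in 20 groups. Many genes were searched in each group, so some of the gaps below may be due to chance. Deficient ozone F2 was high for Il6 at 6.21, Cxcl1 at 6.69, Mki67 at 9.91 and Kif22 at 9.73 log2 intensity. Wildtype ozone M2 was high for both calprotectin genes, S100a8 at 13.68 and S100a9 at 14.31. Wildtype ozone F1, the array whose description names another exposure, was high for Cxcl1 at 5.91. Wildtype ozone F2 was low for Cyp7b1 at 6.96 and high for Ighm at 10.68, wildtype ozone M1 was high for Rpa2 at 7.12, and deficient ozone F1 was low for Lcn2 at 11.65. The genotype difference of Cth was lower in females than in males by -1.13, with 2 arrays per genotype and sex, by the test of that difference in limma (adjusted p = 0.0491).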

How the results depend on the processing

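Clec16a and Saa3 kept their direction under all 31 alternatives, and the losses of the Saa3 call are given with its values. Against 2 genes called for genotype in ozone, the count was 5 after quantile normalization, 5 with the mean of all probe sets, 10 with array weights, 9 without the 3 air arrays, 4 with the replicate block, 0 in males alone, 1 in females alone, 1 with 8 groups, 1 against a fold of 1.2 and 1 at an adjusted p under 0.01. Leaving out 1 array gave 1 to 7. Same-numbered arrays did not pair across the groups, with correlations of their deviations of 0.0894 for M1, -0.1652 for M2, 0.0871 for F1 and -0.1416 for F2, so the block adds only a number. For genotype in air the count of 1 was 2 after quantile normalization and 2 with a common median, and 1 to 2 without 1 array. The test of genotype by ozone called 0 genes under each alternative. For the sexes the count of 1 was 0 after quantile normalization, a common median, every probe set on its own, the trend and robust prior, the ozone arrays alone, without the 3 air arrays and at an adjusted p under 0.01, and 0 to 103 without 1 array. Signs turned in males alone for Il1b (-0.28), S100a8 (-0.82), S100a9 (-1.04), the T and NK cell median (-0.01) and the B and plasma cell median (-0.08), and in females alone for the neutrophil median (0.13). Leaving out 1 array gave -0.12 to 1.37 for S100a8, -0.38 to 1.47 for S100a9, -0.00 to 0.33 for the B and plasma cell median and -0.64 to 0.19 for the neutrophil median. Each sex alone has fewer arrays, and the cause of these shifts was not tested.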
